A study of Mus musculus with 67 samples.

Results

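DNA replication genes are described here across mouse monocytes and their progenitors. The set holds 43 genes given by symbol in a list drawn up with earlier results of these data known, and each symbol was found as 1 of the 24421 gene rows of each of 3 expression tables. The genes fall into 8 roles: the replicative helicase (11 genes), origin licensing and firing (5), the sliding clamp and its loader (5), the replicative polymerases and primase (9), single-strand binding (3), flap removal and ligation (2), nucleotide supply (5) and replication-coupled chromatin assembly and maintenance (3).

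Before a cell divides, the origin recognition complex with Cdc6 and Cdt1 loads the Mcm2-7 ring onto DNA, and Cdc45 and the GINS proteins turn that ring into the active helicase. Primase and polymerase alpha start each strand, polymerases delta and epsilon extend it on the Pcna clamp, and ribonucleotide reductase, thymidylate synthase, thymidine kinase 1 and dUTPase keep the deoxynucleotide pool supplied. Transcription of most of these genes is under E2F and DREAM control and peaks around the entry into S phase, and monocyte progenitors in marrow divide while circulating monocytes are largely outside the cell cycle.

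Sorted cells of mice were profiled by poly(A) RNA sequencing in 67 libraries, split over 28 groups. From C57BL/6 mice 7 weeks old came marrow MDP (macrophage and dendritic cell progenitors, n = 4), cMoP (common monocyte progenitors, n = 4), Ly6C+ monocytes (the classical subset, n = 3) and Ly6C- monocytes (the patrolling subset, n = 4). Blood of C57BL/6 mice of that age gave 4 libraries of Ly6C+, 3 of Ly6Cint (intermediate) and 3 of Ly6C- cells. A second table held marrow MDP, cMoP and Ly6C+ cells of C57BL/6 mice 8 weeks old, and blood of mice 16 weeks old on a mixed background (n = 2 in each of the 8 groups). The wt blood was sorted into all 3 subsets and the ko blood into Ly6C+ and Ly6Cint cells; the ko animals lack C/EBPb according to the title of the series. The third table followed a transfer experiment in C57BL/6 mice 8 weeks old: marrow Ly6C+ cells before transfer, grafted cells recovered from blood and spleen at 24, 36 and 48 h, and the hosts' own Ly6C+, Ly6Cint and Ly6C- cells of blood and spleen at 24 h (n = 2 in each of the 13 groups). Marrow and the blood of the first and second tables were enriched with CD115 beads before sorting, whereas blood of the transfer experiment was sorted after Ficoll and spleen after red cell lysis. The labels number the replicates without saying whether they were separate animals, so p-values measure the spread between these libraries only.

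Levels are given as RPM, the reads of a gene per 1000000 reads. In the 7-week table and the second table these were reads of an assumed library total, and the share of it on genes differed between libraries. In the transfer table they were reads on genes, so its RPM has another base. Reads on genes ran from 577690 to 3643327 per library in the 7-week table and from 942751 to 5478762 in the second, and could be worked out for 25 of 26 transfer libraries, from 502765 to 1784086. The labelled cells carried their markers: 6 progenitor genes summed to 1361 to 1597 RPM in 7-week MDP against 14.5 to 97.9 in the 7-week monocyte groups, and 8 Ly6C+ monocyte genes to 6353 to 10822 RPM in 7-week Ly6C+ cells against 429 to 1085 in 7-week Ly6C- cells. Cebpb itself stood at 57.2 to 185.8 RPM in ko blood and at 693 to 1734 RPM in wt Ly6C+ and Ly6Cint blood. In 6 grafted libraries only 7734 to 8761 genes had reads, against 9354 to 11719 in the other transfer libraries.

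The summed level of the 43 genes set 3 tiers. It was 6270.0 ± 181 RPM (SD, n = 4) in 7-week MDP and 6441 ± 298 (n = 4) in cMoP, and 3254 ± 435 (n = 3) in marrow Ly6C+ cells. The lowest tier held 609 ± 73.2 RPM (n = 4) in marrow Ly6C-, 558 ± 184 (n = 4) in blood Ly6C+, 467 ± 47.3 (n = 3) in blood Ly6Cint and 629 ± 116 (n = 3) in blood Ly6C- cells. The tiers did not overlap: marrow Ly6C+ libraries stood at 2822, 3250.0 and 3691 RPM and the highest blood library at 761. In the second table MDP stood at 7419 and 7602 RPM, cMoP at 6488 and 7077 and marrow Ly6C+ cells at 2570.5 and 2997, while the 10 blood libraries lay between 407 and 717. Marrow Ly6C+ cells before transfer reached 2479 and 2561 RPM, and the 24 other transfer libraries 447 to 855. In bulk libraries, fewer cells in S phase and less replication RNA per cell cannot be told apart.

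**Figure D1:**
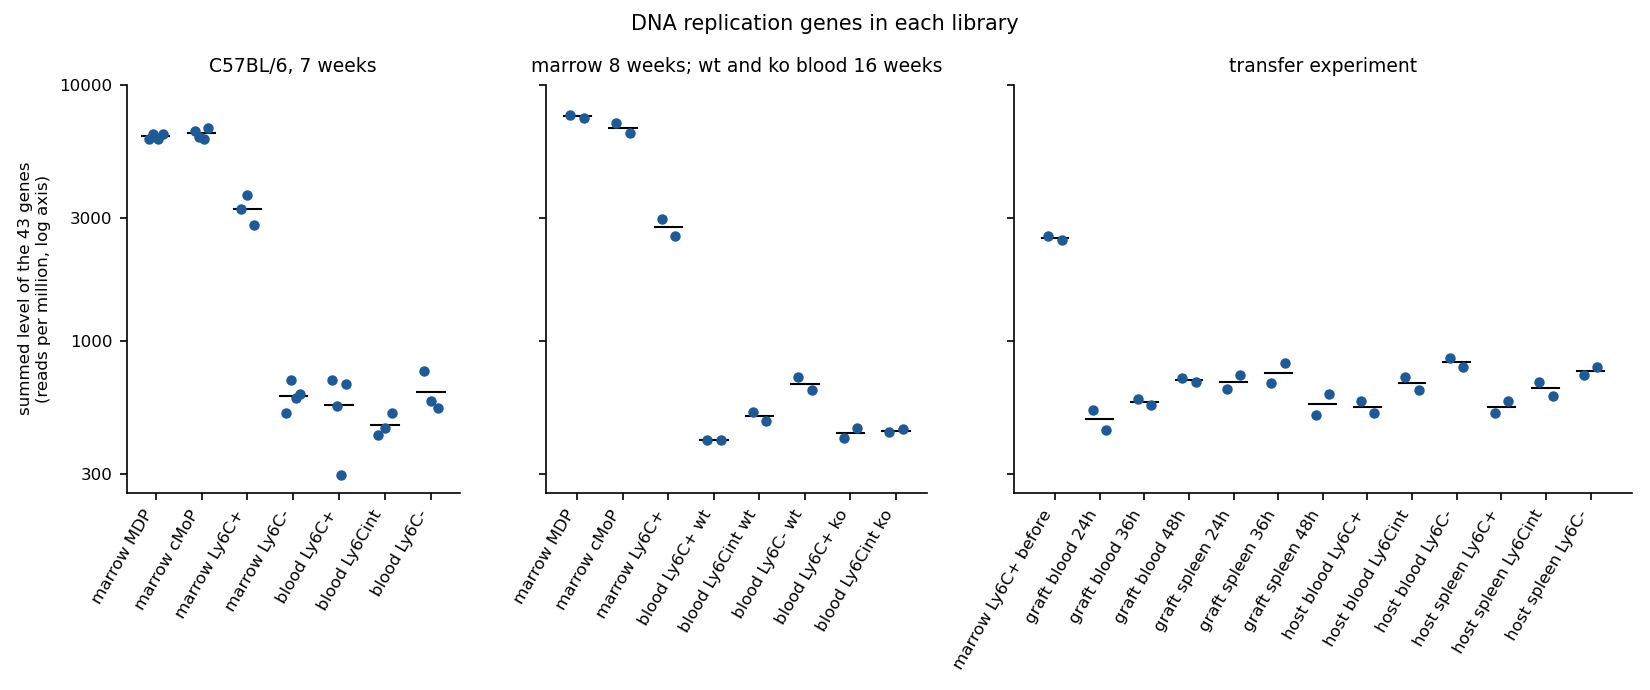
Summed level of the 43 DNA replication genes in RPM (vertical log axis) in each library (points) of each group (horizontal axis), with the group mean as a line, for the 7-week table (left), the table with wt and ko blood (middle) and the transfer experiment (right). Progenitors are highest, marrow Ly6C+ cells lie at 2479 to 3691 RPM, and no blood, spleen or marrow Ly6C- library exceeds 855 RPM. The tables were scaled separately.

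Since the members moved together between marrow and blood, promoters are shown for genes followed at the marrow and blood steps. RefSeq windows from 250 bases before to 50 after the transcription start (build GRCm38.p6) were matched for 36 of the 43 genes. Only the 250 bases before the start were searched and used for the GC content. Both strands were searched for 4 E2F-type runs (TTTGGCGC, TTTCGCGC, TTCCCGCC and TTTCCCGC, where TTTCGCGC and TTTGGCGC can overlap), the run TTTGAA and the run CCAAT. At least 1 of the 4 E2F-type runs was in 12 of 36 members (33.3%), against 3.36% of 27025 genes with a window and 6.66% of the 8703 windows of genes tested in the 7-week table, whose median GC content of 59.6% matched that of the members (59.57%). CCAAT was in 22 of 36 (61.1%, against 37.5% of all genes) and TTTGAA in 5 of 36 (13.9%, against 18.3%). The windows of all genes had a lower median GC content, 52.4%. For CCAAT and TTTGAA the share among genes tested in the 7-week table was not worked out. The 12 members with an E2F-type run and the 24 without had median log2 ratios of -0.91 and -0.96 between marrow Ly6C+ cells and cMoP, and of -3.02 and -2.55 between blood and marrow Ly6C+ cells. The 8 stretches below, written 5′ to 3′ on the gene's strand, carry the run of each gene in capitals. The first 4 show E2F-type runs and the last 4 a CCAAT run or its complement ATTGG.
Mcm5 (chr8:75109334-75109393, plus strand): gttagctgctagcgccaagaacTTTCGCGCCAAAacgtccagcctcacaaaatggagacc
Cdc6 (chr11:98907987-98908046, plus strand): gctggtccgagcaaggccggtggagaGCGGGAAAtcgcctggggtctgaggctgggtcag
Pola1 (chrX:93632260-93632319, minus strand): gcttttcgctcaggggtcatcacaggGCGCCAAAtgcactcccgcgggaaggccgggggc
Uhrf1 (chr17:56303263-56303322, plus strand): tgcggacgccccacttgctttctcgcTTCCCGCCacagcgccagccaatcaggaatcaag
Cdc45 (chr16:18811973-18812032, minus strand): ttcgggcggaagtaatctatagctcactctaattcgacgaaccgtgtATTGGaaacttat
Pcna (chr2:132253236-132253295, minus strand): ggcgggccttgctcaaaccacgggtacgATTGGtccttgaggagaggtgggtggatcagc
Rrm2 (chr12:24708176-24708235, plus strand): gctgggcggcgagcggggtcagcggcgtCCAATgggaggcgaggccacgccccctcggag
Rpa2 (chr4:132768280-132768339, plus strand): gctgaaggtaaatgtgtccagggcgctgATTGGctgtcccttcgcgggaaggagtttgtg
In Mcm5 the runs TTTCGCGC and TTTGGCGC lie on opposite strands and share bases, and start 153 and 149 bases before the transcription start. The 250 bases before the listed starts of Lig1 and Tyms held none of these runs.

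The question of whether the progenitor stages differ was put to MDP and cMoP first. By limma on log2(RPM + 1), no member was called between them at 7 weeks (0 of 43 at an adjusted p under 0.05, against 9.25% of 11373 genes called in either direction). At an unadjusted p under 0.05 the count was also 0, and edgeR called 0 lower and 1 higher. The median log2 ratio of cMoP to MDP was 0.04. Rrm2, the regulated small subunit of ribonucleotide reductase, stood furthest apart, at 98.7, 112, 118 and 125 RPM in MDP and 172, 174, 176 and 183 in cMoP. Its groups did not overlap, but the test did not call it (log2 ratio 0.64 ± 0.39, adjusted p = 0.48). At 8 weeks none of 43 was called either (4.85% of 11388 genes in either direction, 0 members at an unadjusted p under 0.05), and Rrm2 lay the other way, at 86.8 and 119 RPM in MDP and 61.3 and 106 in cMoP.

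From cMoP to marrow Ly6C+ monocytes, the replication genes dropped to a median of 52.4% of the cMoP level. All 43 log2 ratios were below 0, with a median of -0.94 against -0.17 over all genes, and 27 of 43 members fell by the test (22.4% of all genes were called lower), while none rose. In 42 of 43 members no marrow Ly6C+ library reached the lowest cMoP library; the exception was Rrm2. The share of all genes set apart in this way was not worked out. edgeR called 33 members lower, and limma fitted on the compared groups alone called 42. The 22.4% belongs to the main fit, and the shares of all genes under the other fits are not given here. The 8-week marrow gave 29 of 43 members lower and none higher (20.5% of all genes called lower), with a median of -1.35 against -0.10 over all genes. Across the 43 genes the ratios of both tables, which share no library, ran in parallel (Pearson r = 0.70, Spearman rho = 0.70, across genes that are not independent replicates). Markers of other cell types moved with this step in both tables. At 8 weeks 9 neutrophil genes summed to 3083 to 3791 RPM in cMoP and 314 to 333 in Ly6C+ cells, with none of the 9 at 0. The sum of 9 erythroid genes was 403 to 803 RPM in cMoP and 5000 to 6572 in Ly6C+ cells, with only Epor at 0 in the Ly6C+ cells. At 7 weeks the same lists were at 42.02 to 71.9 and 237 to 340 RPM (neutrophil) and at 34.0 to 101 and 13.9 to 297 RPM (erythroid). The sum of 7 T and NK cell genes was 183 to 271 RPM in 7-week cMoP and 9.42 to 14.7 in Ly6C+ cells, and 78.1 to 105 and 3.33 to 7.98 RPM at 8 weeks, with Cd3e, Cd3d, Ncr1 and Klrb1c at 0 in all 4 groups. Summed B cell genes (7, Pax5 at 0 throughout) went from 68.1 to 75.3 RPM in cMoP to 20.8 to 36.5 in Ly6C+ cells at 7 weeks, and from 112 to 124 to 31.6 to 32.5 at 8 weeks. Those of tissue macrophages (8) went the other way, from 40.9 to 92.9 RPM to 229 to 332 at 7 weeks and from 73.5 to 83.7 to 262 to 296 at 8 weeks. The part of these lists in the result was not tested.

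The larger drop came between marrow and blood. Of 43 members, 42 fell in blood Ly6C+ monocytes compared with marrow Ly6C+ monocytes (18.7% of all genes called lower) and none rose; the median log2 ratio was -2.79 against -0.19 over all genes, so that the median member kept 14.5% of its marrow level. With quantile scaling the median of all genes moved from -0.19 to 0.06, and the members' count stayed within 1.5 times. Other markers moved with this step. Neutrophil genes (9) summed to 237 to 340 RPM in marrow Ly6C+ cells and 25.4 to 64.8 in blood Ly6C+ cells, where Camp was at 0. Dendritic cell genes (8) summed to 154 to 174 RPM in marrow and 323 to 569 in blood, with Xcr1 at 0 in both and Zbtb46 at 0 in blood. The ranges of the erythroid sum overlapped, at 13.9 to 297 RPM in marrow and 67.8 to 1162 in blood, with Klf1 at 0 in both. The part of these lists in the result was not tested. The 1 member not called was Pola2, the accessory subunit of polymerase alpha (log2 ratio -0.90 ± 0.38, adjusted p = 0.079). Blood libraries overlapped marrow libraries in 2 of 43 members, and the share of all genes that overlapped was not worked out.

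**Figure D2:**
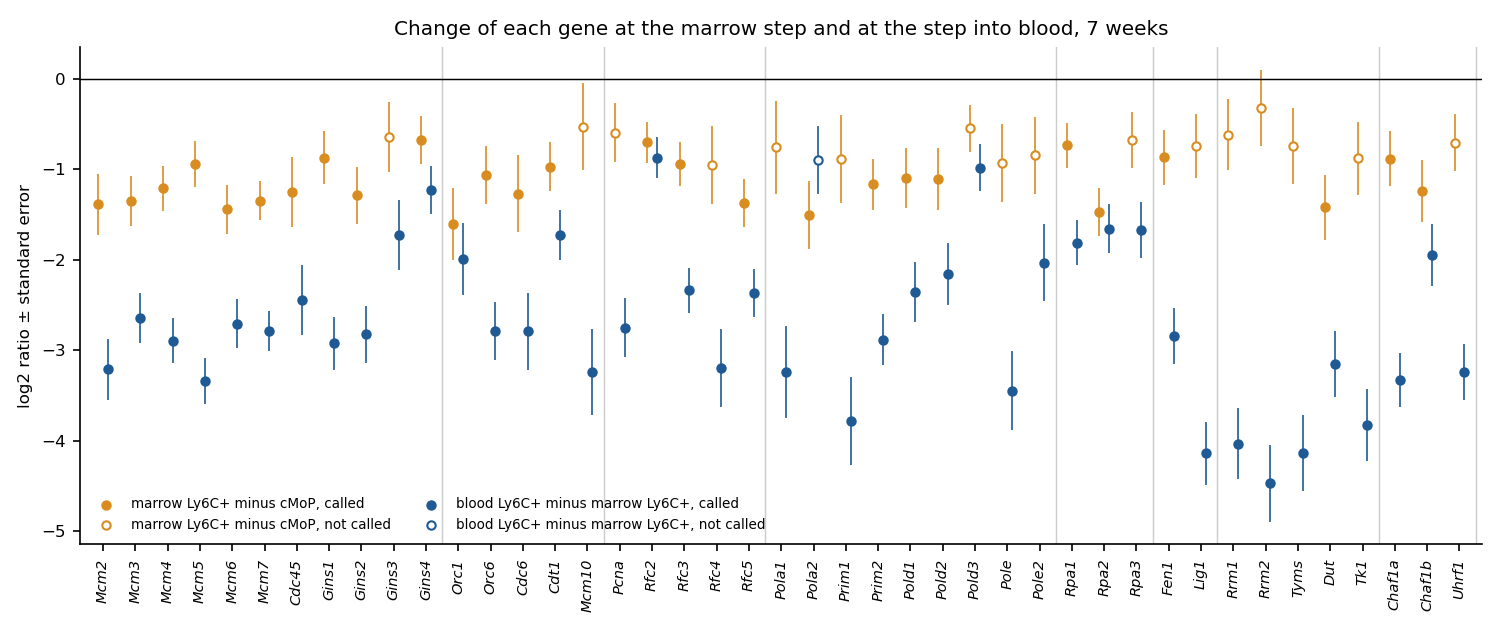
Log2 ratio of each of the 43 genes (vertical axis, with its standard error) for marrow Ly6C+ cells minus cMoP (orange) and for blood Ly6C+ minus marrow Ly6C+ cells (blue), both at 7 weeks; filled points were called at an adjusted p under 0.05 and grey lines separate the roles. The helicase genes fell at both steps, and Rrm2 has the ratio closest to 0 at the first step and the lowest ratio at the second.

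The helicase genes fell at both steps. All 6 Mcm2-7 genes and 10 of the 11 helicase members were called at the marrow step (median -1.26), and 11 of 11 at the blood step (median -2.79). Over all genes 22.4% were called lower at the marrow step and 18.7% at the blood step, also for the role counts below. Mcm5, a subunit of the ring, stood at 294, 331, 360.0 and 362 RPM in cMoP, 138, 180.0 and 213 in marrow Ly6C+ cells and 8.16, 14.6, 21.8 and 26.4 in blood Ly6C+ cells. No library of one group reached the range of the group before it (log2 ratio -0.94 ± 0.25, adjusted p = 0.0037 for the marrow step and log2 ratio -3.34 ± 0.25, adjusted p = 8.7e-11 for the blood step). Mcm6 gave the largest fall of the ring at the marrow step, from 400.1, 412, 429 and 433 to 149, 153 and 157 RPM (log2 ratio -1.45 ± 0.27, adjusted p = 0.00011). At 8 weeks that was Mcm2, from 190.0 and 262 to 39.3 and 49.1 RPM (log2 ratio -2.32 ± 0.49, adjusted p = 0.0019). Cdc45, which completes the active helicase, went from 26.9, 32.4, 36.2 and 36.4 RPM in cMoP through 10.04, 12.3 and 18.2 in marrow Ly6C+ cells to 0.768, 0.86, 2.02 and 3.52 in blood. It was called at both steps (log2 ratio -1.26 ± 0.39, adjusted p = 0.011 and log2 ratio -2.45 ± 0.39, adjusted p = 1.6e-05), with all 3 groups apart. Gins4, a GINS subunit, kept the most of its marrow level among the helicase genes, 42.2%, at 18.5, 22, 25.8 and 30.7 RPM in blood (log2 ratio -1.23 ± 0.27, adjusted p = 0.00083). Gins3, another GINS subunit, was the 1 helicase gene with a ratio above 0 at the 8-week marrow step, but its Ly6C+ libraries stood at 15.8 and 76.7 RPM and it was not called (log2 ratio 0.97 ± 0.63, adjusted p = 0.25).

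Licensing genes followed the helicase. Orc1, the largest subunit of the origin recognition complex, fell from 16.2, 19.3, 21.4 and 22.1 RPM in cMoP to 3.09, 6.52 and 9.12 in marrow Ly6C+ cells (log2 ratio -1.61 ± 0.40, adjusted p = 0.0019). That was the largest ratio of the set at the step. In blood it had no reads in 2 of 4 Ly6C+ libraries, and in all 10 blood libraries of the second table it was at 0. Cdc6, the loader of the ring, stood at 59.7, 61.5, 63.3 and 64.8 RPM in cMoP, 18.8, 27 and 31.6 in marrow Ly6C+ cells and 1.54, 1.76, 3.87 and 5.06 in blood. The groups did not overlap (log2 ratio -1.27 ± 0.43, adjusted p = 0.020 and log2 ratio -2.79 ± 0.43, adjusted p = 1.1e-05). Mcm10, which acts at origin firing, was the 1 licensing gene not called at the marrow step. It stood at 40.3, 48.2, 48.5 and 51.1 RPM in cMoP and 28.3, 34 and 34.7 in marrow Ly6C+ cells (log2 ratio -0.53 ± 0.48, adjusted p = 0.41; at 8 weeks log2 ratio -0.66 ± 0.41, adjusted p = 0.23). Whether its ratio differs from those of the other 4 was not tested. It then fell in blood to 0.43, 3.04, 3.84 and 4.4 RPM (log2 ratio -3.24 ± 0.48, adjusted p = 5.6e-06).

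At the clamp, 3 of 5 members were called at the marrow step and 5 of 5 at the blood step. Pcna, the sliding clamp, stood at 462, 469, 495 and 559 RPM in cMoP and 262, 300.4 and 441 in marrow Ly6C+ cells. These did not overlap but were not called (log2 ratio -0.60 ± 0.32, adjusted p = 0.15). Blood fell to 16.3, 50.2, 75.9 and 80.7 RPM (log2 ratio -2.75 ± 0.32, adjusted p = 1.4e-07). In the second table it stood at 98.5 and 176 RPM in cMoP and 99.9 and 109 in marrow Ly6C+ cells; Pcna and Tyms have pseudogenes by name, so reads could have been split between copies. Rfc2, a subunit of the clamp loader, kept more of its marrow level in blood than any other member, 56.5%: it stood at 111, 132 and 152 RPM in marrow and 49, 61.5, 73.9 and 114 in blood (log2 ratio -0.87 ± 0.22, adjusted p = 0.0041). The highest blood library of Rfc2 lay above the lowest marrow one. Rfc4 and Rfc5, other subunits of the same loader, kept 11.1% and 18.1%.

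Among the polymerases, 4 of 9 members were called at the marrow step and 8 of 9 at the blood step. Pola1, the catalytic subunit of polymerase alpha, stood at 46.3, 48.4, 50.01 and 56 RPM in cMoP, 24.6, 31 and 32.4 in marrow Ly6C+ cells and 0, 2.3, 2.64 and 7.59 in blood. It was called at the second step only (log2 ratio -0.76 ± 0.51, adjusted p = 0.26 and log2 ratio -3.24 ± 0.51, adjusted p = 1.6e-05); the difference between the steps was not tested. Its partner Pola2 was called at the first step only, from 49, 58.5, 60.7 and 77.5 RPM to 17, 18.2 and 28.3 at the marrow step (log2 ratio -1.51 ± 0.38, adjusted p = 0.0020) and 8.1, 9.02, 9.22 and 18.5 in blood. Pole, the catalytic subunit of polymerase epsilon, kept 5.81% of its marrow level in blood (0, 0.768, 1.76 and 2.53 RPM, log2 ratio -3.45 ± 0.43, adjusted p = 4.2e-07). All but the highest of these blood values lay below the level of 3 reads, so the exact share kept is not resolved. Pold3, an accessory subunit of polymerase delta, kept 50.9%, at 40.6, 47.9 and 49.3 RPM in marrow and 17.2, 19.98, 22.8 and 33.5 in blood (log2 ratio -0.98 ± 0.26, adjusted p = 0.0056).

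All 3 single-strand binding genes fell in blood, keeping 28% to 32.3% of the marrow level. Rpa2, the middle subunit of replication protein A, which also serves repair, was 169, 181, 184 and 221 RPM in cMoP and 55.6, 64.5 and 84.1 in marrow Ly6C+ cells (log2 ratio -1.47 ± 0.27, adjusted p = 7.4e-05). Blood libraries stood at 11.2, 21.8, 22.3 and 32.6 RPM, all below marrow (log2 ratio -1.66 ± 0.27, adjusted p = 2.6e-05). Lig1, the ligase that joins Okazaki fragments, was next. It stood at 133, 136, 141 and 147 RPM in cMoP and 76.4, 85.7 and 86.3 in marrow Ly6C+ cells, without a call (log2 ratio -0.74 ± 0.35, adjusted p = 0.098), and 0.86, 3.07, 5.28 and 9.61 in blood (log2 ratio -4.14 ± 0.35, adjusted p = 5.3e-10). At 8 weeks its marrow step was called (log2 ratio -1.22 ± 0.37, adjusted p = 0.018).

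Of the 5 nucleotide supply genes, 1 fell at the marrow step, the dUTPase Dut (median of the 5 -0.74), and 5 of 5 fell at the blood step (median -4.04, the lowest median of the 8 roles). The 1 of 5 was near the 22.4% of all genes called lower at the marrow step, so it says little about this role. Rrm2 stood at 172, 174, 176 and 183 RPM in cMoP and 107, 149.6 and 173 in marrow Ly6C+ cells, which overlapped (log2 ratio -0.32 ± 0.42, adjusted p = 0.59). At 8 weeks the marrow Ly6C+ libraries, 116 and 118 RPM, lay above both cMoP libraries, 61.3 and 106, again without a call (log2 ratio 0.54 ± 0.40, adjusted p = 0.32). In blood Ly6C+ cells it was 2.58, 4.4, 8.1 and 8.45 RPM, the smallest share kept by any member, 4.10% (log2 ratio -4.47 ± 0.42, adjusted p = 3.4e-09). Rrm2b, the p53-inducible small subunit used outside S phase, was not called at either step. Its levels were 2.56 ± 0.647 RPM in cMoP (SD, n = 4), 5.32 ± 3.16 in marrow Ly6C+ cells (n = 3), 4.67 ± 2.21 in blood Ly6C+ cells (n = 4) and 8.96 ± 2.62 in marrow Ly6C- cells (n = 4). Tyms, thymidylate synthase, went from 95.3, 98.8, 103 and 104 RPM in cMoP through 37.1, 63.1 and 90.6 in marrow Ly6C+ cells to 0.768, 1.76, 2.15 and 8.1 in blood (log2 ratio -0.74 ± 0.42, adjusted p = 0.17 and log2 ratio -4.14 ± 0.42, adjusted p = 1.1e-08). Its marrow Ly6C+ libraries were spread widely, and at 8 weeks the ratio was near 0 (log2 ratio -0.01 ± 0.37, adjusted p = 1.00). Rrm1, the large subunit, and Tk1, thymidine kinase 1, kept 7.44% and 7.56% in blood.

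Chromatin factors were called for 2 of 3 at the marrow step and 3 of 3 at the blood step. Uhrf1, which recruits the maintenance methyltransferase to newly copied DNA, stood at 55.9, 61.5, 72.9 and 74.6 RPM in cMoP, 33.4, 38.6 and 49.3 in marrow Ly6C+ cells and 1.29, 3.52, 4.61 and 5.06 in blood, with all 3 groups apart. The marrow step missed the call at 7 weeks (log2 ratio -0.71 ± 0.31, adjusted p = 0.077) and passed it at 8 weeks (log2 ratio -1.89 ± 0.36, adjusted p = 0.00097). The blood step passed (log2 ratio -3.24 ± 0.31, adjusted p = 4.8e-09). In wt and ko blood of the second table Uhrf1 had reads in 4 of 10 libraries and never above 0.65 RPM.

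**Figure D3:**
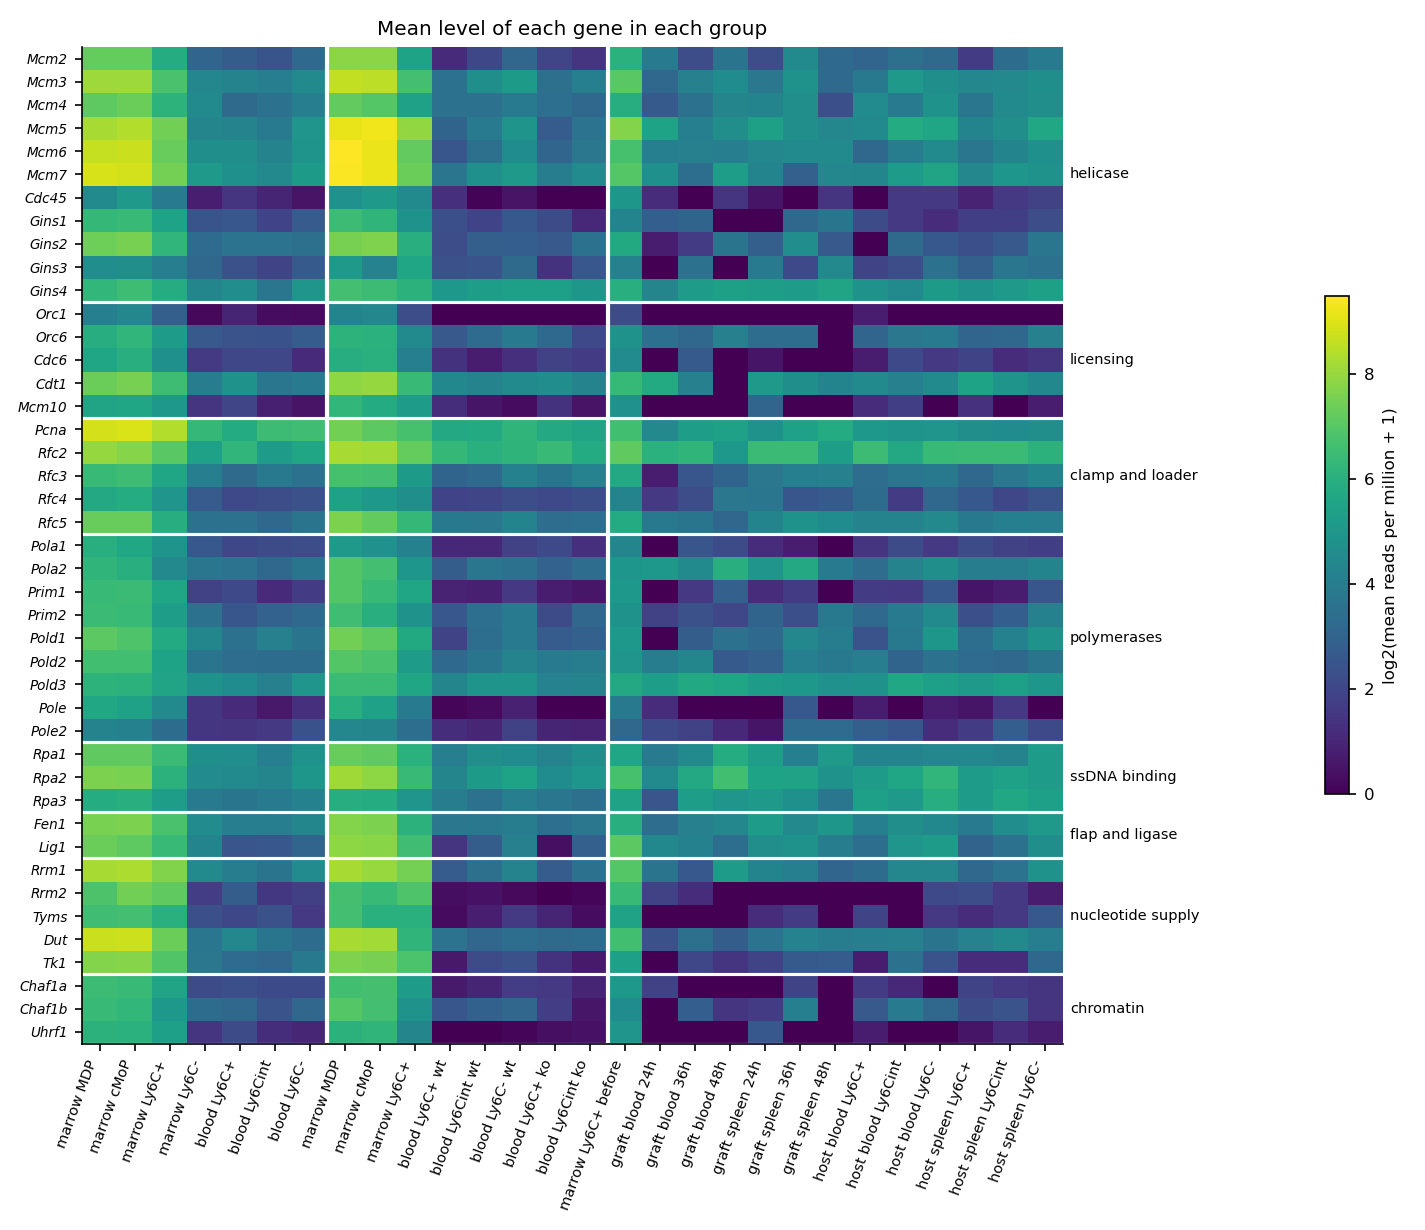
Mean level of each of the 43 genes (rows, by role) in each of the 28 groups (columns; white lines separate the 3 tables), as log2(mean RPM + 1) by color. Rows for Orc1, Pole, Rrm2, Tyms and Uhrf1 are near 0 in most blood and spleen groups, whereas Rfc2, Gins4, Pold3 and Pola2 stay visible in most of them. Levels in 1 row can be compared within a table but not across the white lines, since the tables were scaled separately. Different rows cannot be compared, since RPM is not per gene length.

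Other cell cycle genes were measured at the marrow step. In the main fit, a list of 20 mitosis genes had no member called in either direction between 7-week cMoP and marrow Ly6C+ cells (median log2 ratio 0.34, 16 of 20 above 0). By edgeR 8 of the 20 were called higher, with quantile scaling 2 and by limma on the compared groups alone 11. The shares of all genes under these other fits are not given here. At 8 weeks 12 of 20 rose and none fell (16.3% of all genes were called higher; 15.3% at 7 weeks). Kif11, a spindle motor, was at 19.3 ± 1.88 RPM in cMoP and 93.2 ± 19 in Ly6C+ cells (SD, n = 2 each; log2 ratio 2.20 ± 0.38, adjusted p = 0.00044). Plk1, a mitotic kinase, was at 41.1 ± 13.1 and 133 ± 16.9 RPM (log2 ratio 1.71 ± 0.40, adjusted p = 0.0041). With a pseudocount of 0.5 RPM the count of 12 became 6, and without Ly6C+ replicate I, Ly6C+ replicate II, cMoP replicate I or cMoP replicate II it was 4, 6, 5 or 7; the neutrophil and erythroid sums given above moved with this step. At the blood step 20 of 20 mitosis genes fell (median -4.37). The replication and mitosis lists had medians of -0.94 and 0.34 at the 7-week marrow step, and of -2.79 and -4.37 at the blood step; the difference between the lists was not tested.

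Of 9 measured CDK inhibitor and growth arrest genes, 8 rose from cMoP to marrow Ly6C+ cells at 7 weeks (15.3% of all genes were called higher and 22.4% lower) and 7 at 8 weeks (16.3% and 20.5%). Btg2, an antiproliferative gene, stood at 10.4 ± 3.0 RPM in 7-week cMoP (SD, n = 4) and 77.3 ± 11.6 in Ly6C+ cells (n = 3; log2 ratio 2.80 ± 0.22, adjusted p = 3.1e-11). Cdkn1a, which encodes p21, stood at 24.8 ± 3.49 and 88.1 ± 3.99 RPM (log2 ratio 1.80 ± 0.19, adjusted p = 7.4e-09). Among 24 E2F and G1/S regulators, 10 fell and 2 rose at 7 weeks, the latter a smaller share than over all genes. Ccnd2, Cdk6, Cdk4 and Myc were among those that fell, Cdk6 from 674 ± 19.5 to 77 ± 10.5 RPM (log2 ratio -3.12 ± 0.21, adjusted p = 5.5e-13). Those that rose were E2f2, from 29.97 ± 3.52 to 247 ± 13.3 RPM (log2 ratio 3.01 ± 0.22, adjusted p = 4.8e-12), and Ccnd3. At 8 weeks 10 of the 24 regulators fell and 5 rose, E2f2 and Ccnd3 among the latter. There the share that rose was larger than the 16.3% over all genes.

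Most other genes of nucleotide metabolism fell at the marrow step. Of 18 measured, 12 fell and 3 rose at 7 weeks, and 13 fell and 3 rose at 8 weeks; against the shares of all genes just given, the counts that rose were near the background. Dctd, dCMP deaminase, stood at 29.7 ± 2.01 RPM in 7-week cMoP and 2.36 ± 0.653 in Ly6C+ cells (log2 ratio -3.21 ± 0.36, adjusted p = 3.1e-08). Cad and Shmt2, of pyrimidine and one-carbon synthesis, and Nme1 also fell. Samhd1, which breaks down deoxynucleotides, rose from 104 ± 6.82 to 587 ± 41.8 RPM (log2 ratio 2.48 ± 0.17, adjusted p = 7e-13), as did the salvage kinases Dck (log2 ratio 1.25 ± 0.20, adjusted p = 9e-06) and Tk2 (log2 ratio 0.62 ± 0.23, adjusted p = 0.031). Among 37 further replication genes 12 fell and 1, the nuclease-helicase Dna2, rose at 7 weeks (log2 ratio 1.11 ± 0.24, adjusted p = 0.00047); at 8 weeks 11 of 36 tested fell and 4 rose, Dna2 again among them (log2 ratio 1.12 ± 0.20, adjusted p = 0.00045). Over all genes 22.4% and 20.5% were called lower and 15.3% and 16.3% higher at these ages, so the lower counts stood somewhat above the background and the higher counts below it. At the blood step 30 of 37 fell (18.7% of all genes), with the smallest p for Gmnn, the inhibitor of Cdt1.

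**Figure D4:**
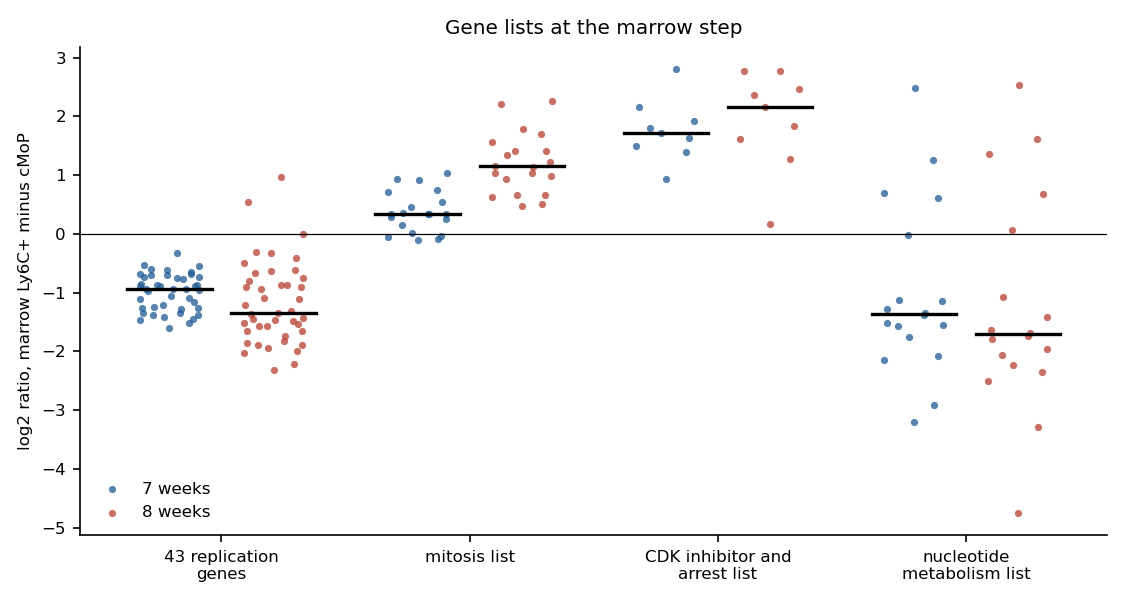
Log2 ratio of each gene (points) for marrow Ly6C+ cells minus cMoP at 7 weeks (blue) and 8 weeks (red), for the 43 replication genes, the mitosis list, the CDK inhibitor and arrest list and the nucleotide metabolism list; black lines are medians. The replication genes have medians of -0.94 and -1.35, the mitosis genes of 0.34 and 1.15 and the arrest genes of 1.72 and 2.16.

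Within marrow, the members were far lower in Ly6C- than in Ly6C+ monocytes. Compared with marrow Ly6C+ cells, 42 of 43 members fell and none rose (29.1% of all genes called lower; median -2.39 against -0.28). Rrm2 stood at 0, 1.99, 3.27 and 4.1 RPM (log2 ratio -5.64 ± 0.42, adjusted p = 1.2e-11). Mcm5 stood at 18.3, 18.4, 19.3 and 20.02 RPM (log2 ratio -3.13 ± 0.25, adjusted p = 4.2e-11) and Uhrf1 at 1.11, 1.17, 1.99 and 2.61 (log2 ratio -3.95 ± 0.31, adjusted p = 3.6e-11). All 3 genes were below every marrow Ly6C+ library. The 1 member not called was Gins3 (log2 ratio -0.93 ± 0.39, adjusted p = 0.056). Summed erythroid genes were 1228 to 3128 RPM in these Ly6C- libraries and 13.9 to 297 in marrow Ly6C+ cells, and tissue macrophage genes 734 to 1032 and 229 to 332 RPM; their part in the result was not tested. Between marrow and blood Ly6C- cells no member was called (2.54% of all genes in either direction; 2 lower and 2 higher at an unadjusted p under 0.05, and edgeR called 0 lower and 1 higher), and the median ratio of marrow to blood lay at -0.0046. The Ly6C- to Ly6C+ ratio was lower in marrow than in blood for 41 of 43 members by the interaction test (14.3% of all genes called lower). Both ratios rest on the Ly6C+ groups described above. Rrm2 gave the largest interaction (log2 ratio -4.61 ± 0.60, adjusted p = 3.6e-06), Mcm5 gave log2 ratio -3.97 ± 0.35, adjusted p = 1.3e-08, and the members not called were Gins3 and Pola2.

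In blood of wt mice, some replication genes were higher in Ly6C- than in Ly6C+ monocytes. This comparison was added after the values were seen. In wt blood 14 of 43 members were higher in Ly6C- cells and none lower (4.84% of all genes called higher; median 0.61 against 0.03). Lig1 was 1.1 and 2.43 RPM in Ly6C+, 4.16 and 7.9 in Ly6Cint and 15.4 and 17.8 in Ly6C- cells (log2 ratio 2.71 ± 0.37, adjusted p = 0.00017 for Ly6C- against Ly6C+). Mcm5 was 5.47 and 9.26 RPM in Ly6C+, 12.9 and 15.4 in Ly6Cint and 28.2 and 30.5 in Ly6C- cells (log2 ratio 1.90 ± 0.34, adjusted p = 0.0017), and the 3 subsets did not overlap for either gene. Between these log2 ratios lay those of Mcm6 (2.10 ± 0.39, adjusted p = 0.0021), Pold1 (2.03 ± 0.33, adjusted p = 0.00078) and Mcm2 (2.01 ± 0.49, adjusted p = 0.014). Tk1 (1.75 ± 0.38, adjusted p = 0.0072), Mcm3 (1.59 ± 0.26, adjusted p = 0.00075) and Rrm1 (1.47 ± 0.31, adjusted p = 0.0053) followed on the same scale. Mcm7, Orc6, Rfc3, Prim2, Rpa2 and Tyms were also called. Replicates I and II of wt Ly6C+ cells held 0.22 and 0.91 RPM of Tk1 and 0.44 and 0 of Tyms. The level of 3 reads there was 0.66 and 0.91 RPM, so the size of the rises of Tk1 and Tyms is not resolved. Rrm2 and Uhrf1 were not called, and no wt blood library held more than 0.756 RPM of Rrm2 or 0.167 RPM of Uhrf1. These levels lay far under those of the 8-week progenitors, where Mcm5 was 565 and 592 RPM in MDP and 573 and 661 in cMoP. Tissue macrophage genes summed to 431 to 483 RPM in wt Ly6C- and 272 to 300.1 in wt Ly6C+ cells (Vcam1 and Mertk at 0 in both), and dendritic cell genes to 78.1 to 80.3 and 166 to 189 RPM (Xcr1 and Ly6d at 0 in both); their part in the result was not tested. The count of 14 was 7 or 6 without Ly6C+ replicate II or I, 5 without Ly6C- replicate I, and 3 in a fit on the compared groups alone.

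The same comparison at 7 weeks, which shares no library with it, gave 4 members lower and 4 higher (10.5% and 9.86% of all genes), and the 43 ratios of both had Pearson r = 0.65 and Spearman rho = 0.58 across genes. Both counts were near the background, so they say little about the members. Higher in Ly6C- cells, by log2 ratio, were Mcm4 (0.77 ± 0.25, adjusted p = 0.025), Mcm5 (0.84 ± 0.25, adjusted p = 0.017), Prim2 (0.85 ± 0.28, adjusted p = 0.030) and Pcna (0.98 ± 0.32, adjusted p = 0.030). Lower were Cdt1 (-0.94 ± 0.27, adjusted p = 0.013), Mcm10 (-1.34 ± 0.48, adjusted p = 0.045), Rfc2 (-0.64 ± 0.22, adjusted p = 0.040) and Uhrf1 (-1.10 ± 0.31, adjusted p = 0.012). All Ly6C- values of Mcm10 and Uhrf1 lay below the level of 3 reads, so the size of their falls is not resolved. Mcm5 stood at 8.16, 14.6, 21.8 and 26.4 RPM in Ly6C+ and 25.1, 30.1 and 35.4 in Ly6C- cells, which overlapped at their edges. Replicate 4 of the Ly6C+ group had the lowest summed level of the 4, which stood at 299, 555, 675 and 703 RPM, and without it none of 43 members was called higher and 6 lower. Without Ly6C- replicate 3 none was higher, without Ly6C- replicate 2 none was lower, without Ly6C+ replicate 3 and replicate 1 the lower count was 1 and 2, and without Ly6C+ replicate 1 the higher count was 7. In the hosts of the transfer experiment no member was called between Ly6C- and Ly6C+ cells, in blood (3.66% of all genes in either direction; 3 members higher and 0 lower at an unadjusted p under 0.05) or in spleen (2.77%; 1 higher and 0 lower). The summed level of the set was 520.3 and 582 RPM in host blood Ly6C+ cells and 790.2 and 855 in host blood Ly6C- cells.

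**Figure D5:**
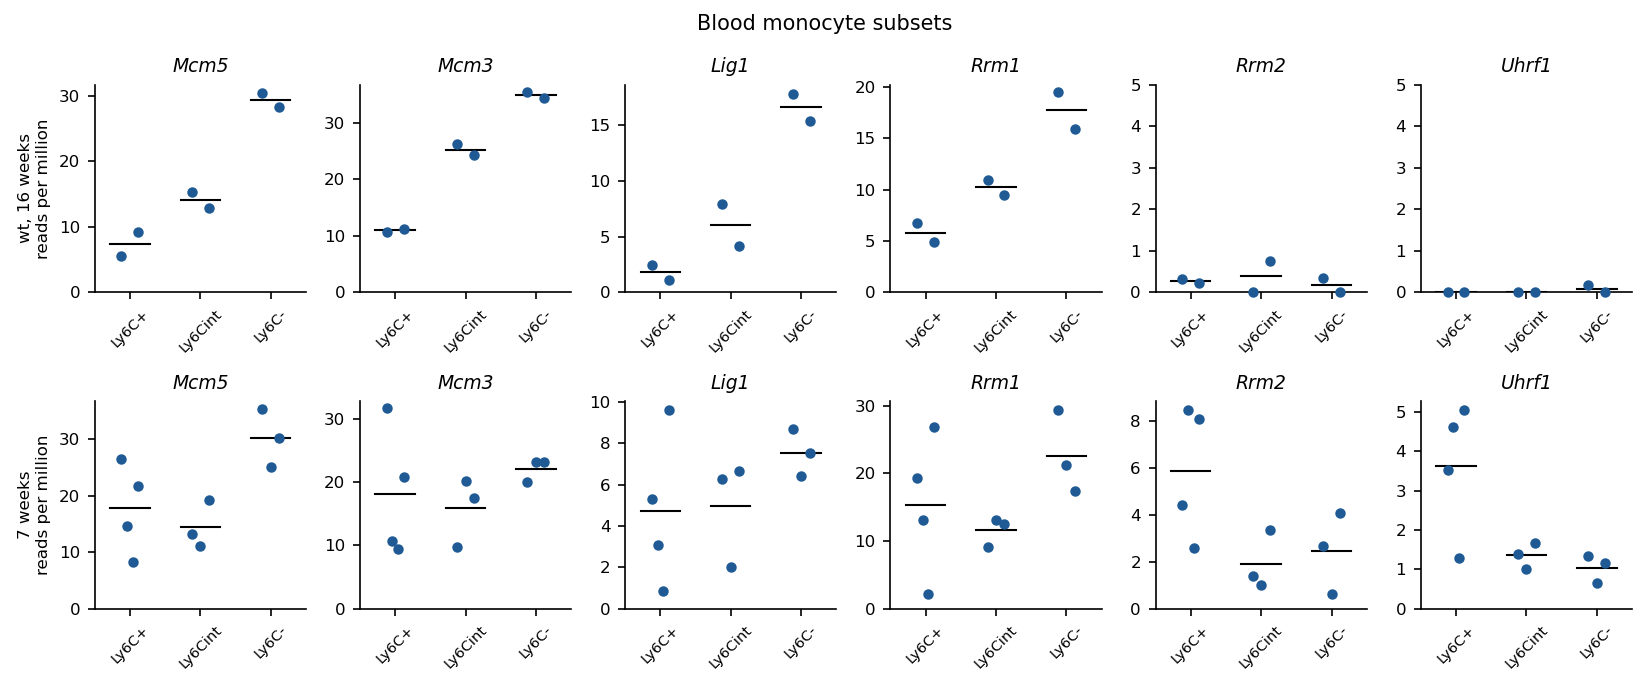
Levels in RPM (vertical axes, from 0) of 6 members in the 3 blood subsets, from wt mice 16 weeks old (top, n = 2 each) and C57BL/6 mice 7 weeks old (bottom, n = 4, 3 and 3); points are libraries and lines are means. Mcm5, Mcm3, Lig1 and Rrm1 are higher in Ly6C- than in Ly6C+ cells of wt mice without overlap, while Rrm2 and Uhrf1 are near 0 there.

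The intermediate steps in blood moved few members. From Ly6C+ to Ly6Cint at 7 weeks 5 members fell and 1 rose (19.2% and 7.95% of all genes called). The log2 ratios of those that fell were -0.99 ± 0.27, adjusted p = 0.0072 for Gins4, -1.21 ± 0.27, adjusted p = 0.0017 for Cdt1 and -0.96 ± 0.22, adjusted p = 0.0022 for Rfc2. Rrm2 (log2 ratio -1.21 ± 0.42, adjusted p = 0.034) and Uhrf1 (log2 ratio -0.89 ± 0.31, adjusted p = 0.035) also fell, and Pcna rose (log2 ratio 0.88 ± 0.32, adjusted p = 0.043). All Ly6Cint values of Uhrf1 and most of Rrm2 lay below the level of 3 reads, so the size of their falls is not resolved. The shares of members called lower and higher both lay below those of all genes. The count of 5 was 10 without Ly6C+ replicate 4, 3 without Ly6C+ replicate 1, 3 without Ly6Cint replicate 3 and 2 without Ly6Cint replicate 2. By edgeR 2 were called lower. From Ly6Cint to Ly6C- at 7 weeks Mcm5 (log2 ratio 1.03 ± 0.27, adjusted p = 0.018) and Gins4 (log2 ratio 1.28 ± 0.28, adjusted p = 0.0070) rose and none fell (7.25% of all genes called higher). The count was 0 without Ly6C- replicate 3, 1 without Ly6Cint replicate 2 and 6 without Ly6C- replicate 1. In wt mice Mcm3 (log2 ratio 1.13 ± 0.26, adjusted p = 0.019), Pold1 (1.53 ± 0.33, adjusted p = 0.014) and Tk1 (1.52 ± 0.38, adjusted p = 0.035) rose from Ly6C+ to Ly6Cint (2.1% of all genes called higher). That count was 0 without Ly6C+ replicate II or Ly6Cint replicate I, 1 without Ly6C+ replicate I and 6 without Ly6Cint replicate II. Both wt Ly6C+ values of Tk1 lay at or below the level of 3 reads, so the size of its rise is not resolved. None of 43 was called between wt Ly6Cint and Ly6C- cells (0.448% of all genes in either direction; 8 higher and 0 lower at an unadjusted p under 0.05; edgeR called 0 lower and 0 higher).

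Few replication genes differed between ko and wt blood. Between ko and wt Ly6C+ cells no member was called (1.26% of all genes in either direction; 2 lower and 4 higher at an unadjusted p under 0.05; edgeR called 0 lower and 0 higher), and the summed level was 416 and 457 RPM in ko and 407 and 409 in wt. Between ko and wt Ly6Cint cells 3 of 43 fell and 1 rose, against 2.7% and 3.63% of all genes. Chaf1b, a subunit of the histone chaperone CAF-1, was 5.3 and 8.05 RPM in wt and 0.269 and 0.714 in ko Ly6Cint cells (log2 ratio -2.36 ± 0.60, adjusted p = 0.029). Tk1 was 2.65 and 4.24 RPM in wt and 0.537 and 0.714 in ko (log2 ratio -1.43 ± 0.38, adjusted p = 0.037), and Orc6, an origin recognition subunit, 7.17 and 11 in wt and 2.85 and 3.76 in ko (log2 ratio -1.21 ± 0.31, adjusted p = 0.028). Rfc3, a clamp loader subunit, was 8.05 and 8.7 RPM in wt and 17.4 and 17.5 in ko (log2 ratio 0.97 ± 0.26, adjusted p = 0.039). Groups did not overlap for these 4 genes. The level of 3 reads was 0.805 and 0.714 RPM in ko Ly6Cint replicates II and I. Both ko values of Chaf1b and of Tk1 lay at or below it, so the size of these falls is not resolved. With wt Ly6Cint replicate I or II left out 1 member remained lower, and with either ko replicate left out none; Rfc3 was called in none of these 4 fits. Summed Ly6C- monocyte genes (9, none at 0) also differed, at 6914 to 8267 RPM in wt and 2114 to 2531 in ko Ly6Cint cells, and their part in the result was not tested.
Within ko animals Lig1 rose from Ly6C+ (0 and 0.65 RPM) to Ly6Cint cells (5.47 and 7.52; log2 ratio 2.53 ± 0.37, adjusted p = 0.0020), the only call among 43 (0.79% of all genes called higher). Both ko Ly6C+ values of Lig1 lay below the level of 3 reads, 1.95 and 1.96 RPM, so the size of its rise is not resolved. In wt mice the same step of Lig1 was not called (log2 ratio 1.34 ± 0.37, adjusted p = 0.056). No member differed between genotypes in this step by the interaction test (0.00878% of all genes in either direction; 4 lower and 1 higher at an unadjusted p under 0.05; edgeR called 0 lower and 0 higher), Lig1 included (log2 ratio 1.20 ± 0.52, adjusted p = 0.81). 

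Grafted marrow Ly6C+ monocytes had lost most replication RNA by 24 h. In blood grafts 27 of 43 members fell from the level before transfer and none rose (10.3% of all genes called lower); the median ratio was -3.44 against -0.53 over all genes, or -2.88 with the 11 members listed at 0 in a group set to the level of 3 reads. In spleen grafts 13 of 43 fell and none rose (2.91% of all genes; median -2.47, or -2.21 with members at 0 set to that level). Rrm2 stood at 84.1 and 86.8 RPM before transfer, 0 and 5.26 in blood grafts at 24 h (log2 ratio -5.11 ± 0.90, adjusted p = 0.00048) and was listed at 0 in both spleen grafts. Lig1 stood at 135 and 138 RPM before transfer, at 16.2 and 24.5 in blood grafts (log2 ratio -2.71 ± 0.69, adjusted p = 0.012) and at 11.8 and 37.7 in spleen grafts (log2 ratio -2.62 ± 0.69, adjusted p = 0.025). Pcna stood at 86.3 and 106 RPM before transfer, at 11 and 30.7 in blood grafts (log2 ratio -2.31 ± 0.50, adjusted p = 0.0034) and at 27.2 and 28 in spleen grafts (log2 ratio -1.76 ± 0.50, adjusted p = 0.040). All grafts lay below both libraries before transfer for these genes. Tyms was 36.8 and 49.5 RPM before transfer and listed at 0 in both blood grafts. Mcm5 was not called in blood (18.8 and 70.6 RPM beside 208 and 214 before; log2 ratio -2.49 ± 1.45, adjusted p = 0.28).
The comparison is limited by the libraries: in the 2 blood grafts 24 and 26 of the 43 members had any read, against 43 before transfer, and cells before transfer were bead-enriched marrow while grafts were sorted after Ficoll or red cell lysis. Erythroid genes summed to 3652 to 7920 RPM in blood grafts at 24 h and 27.6 to 47.8 before transfer, and B cell genes to 118 to 356 RPM in spleen grafts beside 37.7 to 40.3 and T and NK cell genes to 85.01 to 119.6 beside 2.19 to 6.57; their part in the result was not tested. The count of 27 was 12 or 10 without replicate A or B of the cells before transfer, and 16 in a fit on the compared groups alone. The count of 13 was 5 or 6 without replicate A or B before transfer, 7 without spleen graft replicate C and 25 when the 6 sparse graft libraries were left out of the fit. Shares of all genes under these other fits are not given here.

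The hosts' own cells were compared with the same marrow cells. In host blood Ly6C+ cells 11 of 43 members fell compared with the marrow cells before transfer (1.42% of all genes called lower), all 43 ratios were below 0 and the median was -2.34 against -0.07. Rrm2, Cdc45 and Gins2 were listed at 0 in both host libraries; Uhrf1 (log2 ratio -4.34 ± 0.63, adjusted p = 0.00020), Lig1 (log2 ratio -3.66 ± 0.69, adjusted p = 0.0026) and Tk1 (log2 ratio -4.75 ± 0.97, adjusted p = 0.0053) were among those called. Erythroid genes summed to 3975 to 6964 RPM in these host cells (Klf1 and Epor at 0) and 27.6 to 47.8 before transfer, and neutrophil genes to 10.96 to 12.7 and 147 to 187 RPM; their part in the result was not tested. This set of cells before transfer is shared with the graft comparisons. The count was 4 or 5 without replicate A or B before transfer, 5 without host replicate B, 17 with quantile scaling and 20 without the sparse graft libraries. No share of all genes is given for these other fits. The 43 ratios and those of the 7-week blood step, which share no library, had Pearson r = 0.68 and Spearman rho = 0.69 across genes.

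Later times and tissues moved single members only. Blood grafts gained Gins3 and Rpa3 from 24 to 36 h (2 of 43 higher, 2.84% of all genes) and lost Gins3 and Cdt1 from 36 to 48 h (2 lower, 1.77%). Cdt1 was 30.7 and 77.6 RPM at 24 h, 14.9 and 18.4 at 36 h and listed at 0 at 48 h. Spleen grafts lost Mcm10 from 24 to 36 h (1 lower, 0.0579%) and Orc6 and Chaf1b from 36 to 48 h (2 lower, 4.37%). Between tissues, 5 members were higher in spleen than in blood grafts at 24 h (4.01% of all genes), namely Gins3, Pold1, Mcm10, Rpa3 and Uhrf1, of which all but Rpa3 were listed at 0 in blood. The level of 3 reads in these blood grafts was 4.05 RPM. Mean spleen levels were 3.57 (Gins3), 2.11 (Pold1), 1.84 (Mcm10) and 1.24 (Uhrf1) times that level, so the size of these differences is not resolved. At 36 h none was called (1.1% of all genes in either direction; 1 lower and 2 higher at an unadjusted p under 0.05). At 48 h Gins3 and Cdt1 were higher and Orc6 and Pola2 lower in spleen (2.28% and 2.09% of all genes). Rpa3, the small subunit of replication protein A, was the 1 member whose change from 24 to 48 h differed between tissues (log2 ratio -4.12 ± 1.01, adjusted p = 0.032; 1.98% of all genes called lower). In blood grafts it stood at 3.94 and 5.26 RPM at 24 h and 14.5 and 45.1 at 48 h, and in spleen grafts at 22.8 and 44.7 and then 2.63 and 21.9. The sparse libraries are the blood grafts at 24 and 48 h and the spleen grafts at 48 h. Each comparison described here but those of spleen at 24 and 36 h and of both tissues at 36 h has them in a compared group. All transfer libraries were fitted together, so the sparse ones enter the estimate of spread in every transfer comparison. Leaving out 1 library moved most of these counts: both 2 counts of blood grafts became 0 without either 36 h replicate (and the gain at 36 h 1 without 24 h replicate B). In spleen the 1 became 0 without 24 h replicate C and 2 without 24 h replicate B, and the 2 at 48 h became 1 without either 36 h replicate and 5 without 48 h replicate C. The 5 at 24 h became 0 without spleen replicate C; the lower count at 48 h became 1 without blood replicate B and 5 without spleen replicate C, and the higher count 5 without blood replicate AC and 1 without spleen replicate C. The interaction count became 2 without blood 24 h replicate AC or B or spleen 24 h replicate B, 3 without spleen 48 h replicate B and 4 without spleen 48 h replicate C.

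Among host cells no member was called in any of 7 comparisons. Spleen against blood gave 0 of 43 in Ly6C+ (0.0909% of all genes in either direction; 1 member at an unadjusted p under 0.05), Ly6Cint (0.165%; 2) and Ly6C- cells (0.19%; 0). Ly6Cint against Ly6C+ gave 0 in blood (1.16%; 4) and spleen (0.562%; 1), and Ly6C- against Ly6Cint 0 in blood (0.107%; 1) and spleen (0.215%; 1). Few genes of any kind were called here, so these counts say little about the members. Rrm2b was not called in any transfer comparison.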

How the data were processed

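RNA of sorted mouse cells was profiled in 67 libraries of 28 groups, deposited as 3 gene tables. Per the submitters' processing notes, reads were handled with bcl2fastq, HISAT 0.1.5, SAMtools and HOMER. The deposited signal values of the 7-week table and the table with wt and ko blood were taken as scaled to 10000000 reads per library, a total not given in the sources used here, and divided down to RPM, reads per 1000000. The deposited score values of the transfer table, rounded by the authors, were scaled to their sum. Libraries hold 502765 to 5478762 reads on genes where the step of 1 read could be recovered; levels below 3 reads are not resolved.

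limma 3.58.1 (R 4.3.3) with a mean trend was fitted to log2(RPM + 1) over all libraries of a table, for genes at 2 RPM or more in at least 3 (7-week) or 2 libraries (11373, 11388 and 12096 genes), with Benjamini-Hochberg adjustment over all of them; a call is an adjusted p under 0.05. Ratios understate changes of low genes. The filter was passed by 43 of 43 members in each table. edgeR 4.0.16 on recovered reads, other pseudocounts, filters and scalings, and leaving out libraries were alternatives. The scripts were tested on simulated data.

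Members and gene lists were chosen with earlier results of these data known. Named genes were drawn from 10 panel genes and up to 8 called members with the largest ratio per direction. Members missing a call where 8 or fewer did, and up to 4 called genes per pathway list, could also be named. Not all of these are named at each comparison, so this rule did not fix which genes are named. Others (Pold3, Gins3 and the like) were picked with their values in view. So were the 4 comparisons of blood or spleen Ly6C- with Ly6C+ cells and the fits without sparse libraries. Of the members, 17 overlap another gene, and the strand used in counting is not given in the sources used here.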

Additional observations from a re-analysis of the deposited data

Results flagged for a closer look

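The Ly6C- to Ly6C+ ratio differed between marrow and blood for 41 of 43 replication genes by the interaction test in the 7-week table, all with the lower ratio in marrow, where the Ly6C+ cells hold the high levels. The change from 24 to 48 h differed between spleen and blood grafts for 1 member, Rpa3, with 2 libraries per group. No library stood apart from its group by Dixon's criterion in 44 checks of groups of 4, of which chance alone flags about 1 in 20.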

How the results depend on the processing

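No called result of the members reversed its direction. Shares of all genes are given for the main fit only, so the counts of members under other settings have no background beside them. With limma fitted on the compared groups only, the members lower numbered 1 for cMoP against MDP, 42 for marrow Ly6C+ cells against cMoP, 16 and 6 for blood and spleen grafts at 24 h, and 1 for host blood Ly6C- against Ly6C+ cells, and 3 were higher for wt Ly6C- against Ly6C+ cells. That fit called 0 for both 7-week blood steps, 7-week blood Ly6C- against Ly6C+ cells (lower), ko against wt Ly6Cint, Ly6Cint against Ly6C+ in wt and in ko, every later graft step, the graft tissues at 24 and 48 h and the graft interaction. edgeR called 2 for 7-week Ly6Cint against Ly6C+, 1 for Ly6C- against Ly6Cint and 7 for wt Ly6Cint against Ly6C+. Without a filter the counts were 1 for ko against wt Ly6Cint, 1 for graft tissues at 48 h, 2 for the graft interaction and 2 lower for 7-week blood Ly6C- against Ly6C+; a pseudocount of 0.5 gave 2 for the graft interaction. Quantile scaling gave 0 and 1 for the blood graft steps, 0 for spleen 48 against 36 h. It gave 0 and 1 for graft tissues at 24 and 48 h, 17 for hosts against before transfer and 0 for the graft interaction, and moved the median of all genes most for blood grafts at 24 h, from -0.53 to 0.03; that median also crossed 0 at the 7-week blood step (-0.19 to 0.06) and for graft tissues at 24 h (0.27 to -0.05), among others. Without the sparse graft libraries, a choice made after seeing the data, spleen grafts gave 25 and hosts 20.

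Leaving out 1 library at a time gave ranges of 20 to 26 for marrow Ly6C+ against cMoP (lower), 42 to 43 for blood Ly6C+ against marrow Ly6C+ (lower), 40 to 43 for marrow Ly6C- against marrow Ly6C+ (lower), 2 to 10 for blood Ly6Cint against blood Ly6C+ (lower), 0 to 6 for blood Ly6C- against blood Ly6Cint (higher), 20 to 28 for marrow Ly6C+ against cMoP, 8 weeks (lower). They were 0 to 1 for ko against wt, blood Ly6C+ (lower), 0 to 1 for ko against wt, blood Ly6Cint (lower), 0 to 6 for Ly6Cint against Ly6C+ in wt (higher), 10 to 23 for blood grafts at 24 h against before transfer (lower), 5 to 12 for spleen grafts at 24 h against before transfer (lower). They were 0 to 2 for blood grafts, 36 h against 24 h (higher), 0 to 3 for blood grafts, 48 h against 36 h (lower), 0 to 2 for spleen grafts, 36 h against 24 h (lower), 1 to 5 for spleen grafts, 48 h against 36 h (lower), 0 to 5 for grafts at 24 h, spleen against blood (higher), 1 to 5 for grafts at 48 h, spleen against blood (lower), and 4 to 8 for host blood Ly6C+ against marrow Ly6C+ before transfer (lower), 39 to 42 for tissue interaction: Ly6C- against Ly6C+, marrow minus blood (lower), 1 to 4 for tissue interaction: grafts 48 h against 24 h, spleen minus blood (lower). They were 0 to 6 for blood Ly6C- against blood Ly6C+ (lower), 5 to 10 for Ly6C- against Ly6C+ in wt (higher).

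The replicate block gave 26 members lower at the 7-week marrow step, 29 at 8 weeks and 42 at the blood step. It moved no leading count by over 1.5 times; among the other counts it took members higher in 7-week Ly6C- against Ly6C+ blood from 4 to 2. In the comparisons whose groups share at least 2 labels, deviations of same-numbered libraries correlated from -0.311 to 0.385, so the numbers were not taken to pair the samples. Blood grafts carry the labels AC and B and spleen grafts B and C, so grafts of both tissues share only B, and no block was fitted there; the labels do not say what AC stands for. The crossed replicate block, added after seeing the data, gave 3 lower for ko against wt Ly6Cint cells. Depth limits the members near 0 in blood, and 2 libraries per group limit the tables of wt and ko blood and of the transfer.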
